A study of Drosophila melanogaster with 3 samples.

Results

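The genes described here are 10 members of the piRNA pathway and of the machinery that silences chromatin by methylation of histone H3 at lysine 9 (H3K9) in Drosophila melanogaster. They were taken by name (wde, egg, piwi, shu, papi, cuff, vas, aub, AGO3 and rhi), and all 10 were found among the 13945 protein-coding genes annotated on the 6 chromosome arms. The study mapped where the product of the gene CG15514 sits on chromatin, by chromatin immunoprecipitation and sequencing (ChIP-seq) with an antibody to GFP. All 3 biological replicates form 1 group: whole embryos aged 0 to 24 h, males and females pooled, from a transgenic line that stably makes CG15514 with eGFP, a green fluorescent protein used as a tag, at its C-terminal end. The promoter that drives the tagged protein is not given in the sources used here. There was no second condition, so the data answer which of the 10 genes carried the tagged protein near them, how strongly, and whether the replicates gave the same picture. Because whole embryos were used, strong occupancy in few cells and weak occupancy in many cannot be told apart. The peak lists hold no expression values, so where each gene was transcribed was not measured and no read counts. Sequencing depth is therefore unknown.

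In flies, piRNAs are small RNAs that guide Argonaute proteins of the PIWI family to transposon transcripts in the gonads. Piwi acts in the nucleus, where it leads to H3K9 methylation and transcriptional silencing of transposons, while Aubergine and Argonaute 3 cut transposon RNA in the perinuclear nuage of germ cells and amplify piRNAs in the ping-pong cycle. The methyltransferase Eggless and its partner Windei also act in somatic cells, whereas Rhino and Cutoff serve germline piRNA clusters that are transcribed from both strands.

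Sequence is shown for the 5 members on arms 2L and 3L. It sets the DNA under 3 promoter summits of unlike height beside the DNA just before the start of 2 genes with none. A summit is the base at which the authors' peak caller placed the top of a peak, and TSS stands for an annotated transcription start site. Each run is 121 bases of the Release 6 reference (dm6), from RefSeq, written 5′ to 3′ on the strand of the gene. For papi (chr2L:2221761-2221881, plus strand), piwi (chr2L:10987513-10987633, minus strand) and vas (chr2L:15061522-15061642, plus strand) it is centred on the strongest promoter summit. For aub (chr2L:11001477-11001597, minus strand) and AGO3 (chr3L:23554472-23554592, plus strand) it ends at the base before the first annotated TSS. Capitals mark the string CGATA or its reverse complement TATCG, a core of the DNA replication-related element (DRE).
papi: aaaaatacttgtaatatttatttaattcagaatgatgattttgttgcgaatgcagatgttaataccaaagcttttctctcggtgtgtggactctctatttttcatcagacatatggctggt
piwi: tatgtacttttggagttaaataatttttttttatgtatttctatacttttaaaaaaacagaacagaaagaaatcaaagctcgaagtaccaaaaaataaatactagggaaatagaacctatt
vas: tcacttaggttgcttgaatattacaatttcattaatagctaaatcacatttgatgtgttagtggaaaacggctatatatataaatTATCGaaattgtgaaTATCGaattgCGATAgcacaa
aub: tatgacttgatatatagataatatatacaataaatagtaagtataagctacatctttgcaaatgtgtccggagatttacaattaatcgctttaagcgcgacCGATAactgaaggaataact
AGO3: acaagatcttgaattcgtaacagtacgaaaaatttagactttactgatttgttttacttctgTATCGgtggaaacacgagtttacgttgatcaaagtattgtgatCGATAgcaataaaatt
The string stands 3 times near the vas summit, in neither the papi nor the piwi window, 1 time before aub and 2 times before AGO3. Both of the shown genes without a summit thus hold it within 121 bases of their start.

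The thresholded list holds the 8708 peaks the authors kept by IDR, a cut-off set by how reproducible ranks are. They are the 8708 strongest entries of the list pooled over replicates, so a single peak need not recur in each replicate. In the thresholded list, 7 of the 10 members had at least 1 summit in the gene or within 2 kb of it. The share over all protein-coding genes was 59.1%. The same 7 members had a promoter summit, which means within 500 bp of an annotated TSS of the gene, against 42.9% of all protein-coding genes. These were wde, egg, papi, cuff, shu, piwi and vas. The remaining 3, aub, AGO3 and rhi, had no thresholded summit in the window. The 7 windows held 27 summits, but 16 of them were nearest to the TSS of another gene, and 14 of those lay within 500 bp of it. Only 12 lay within 500 bp of the member's own TSS, and 3 lay over 500 bp from any TSS. Of the 27 summits, 18 had support in every replicate list (an entry of the top 8708 with its summit no more than 100 bp away), while 64.2% of all thresholded summits had it.

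**Figure D1:**
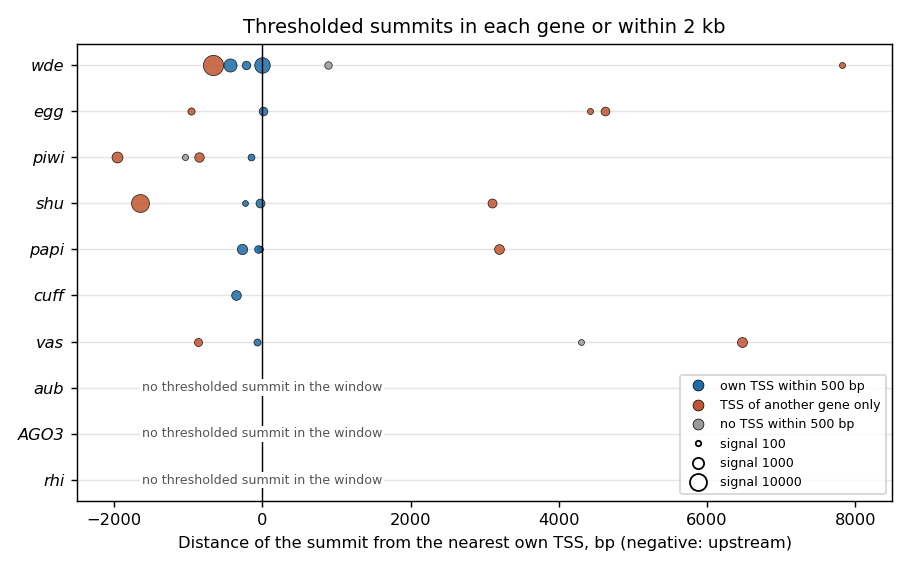
Position of the 27 thresholded summits in or within 2 kb of each member, as the distance in bp from the nearest of the member's own TSSs (negative values upstream), with the point size rising with the log of the peak caller's signal. Blue points lie within 500 bp of an own TSS (12), orange points within 500 bp of another gene's TSS only, and grey points over 500 bp from any TSS (3); aub, AGO3 and rhi have none.

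The signal of a peak is the peak caller's enrichment value against a control and has no common scale between lists. Its median over the thresholded list was 236.4, with a lowest value of 118.9 and a highest of 70620. For comparison between replicates, each signal was divided by the median signal of the 8708 strongest entries of the same list, here called the relative height. These medians were 55.6, 57.2 and 130.7 in replicates 1, 2 and 3.

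Both H3K9 methylation genes had a summit at their own start, far higher at wde than at egg. Windei (wde, FBgn0027499, 2R 10800420 to 10808938, minus strand) is the partner that Eggless needs for H3K9 trimethylation. Its promoter summit at 10808944 lay 6 bp from the TSS, with a signal of 5666 and rank 195 in the thresholded list. Its relative height was 32.6, 35.0 and 23.0 in replicates 1, 2 and 3 (30.2 ± 6.32, SD, n = 3), at ranks 184, 164 and 193. It was among the strongest entries of each list. The same peak interval, 10807779 to 10811280, held a taller summit at 10809607, of signal 36710 and rank 26, in the 5′ UTR of the diverging gene CG12935 and 72 bp from that gene's TSS. It ranked 20, 32 and 32 in the replicates and was 5.34 ± 1.17 (SD, n = 3) times as high as the wde summit, higher in all 3. Whether this taller summit adds to the signal and rank of the wde summit was not tested. A summit of signal 2133 between them, at 10809380, was 17 bp from the CG12935 TSS and had no counterpart within 100 bp in any replicate list. A further summit at 10806757 (signal 341) lay 220 bp from an internal wde TSS and ranked 2704, 5483 and 2303. The last wde summits were weaker: 10805656 (signal 227) in a coding exon, seen near that place in 2 of 3 replicates, and 10798715 (signal 127), 6 bp from the TSS of CG33144.

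Eggless (egg, FBgn0086908, 2R 24775534 to 24779901, minus strand), the fly SETDB1 methyltransferase, had 1 promoter summit, at 24779888, which was 13 bp inside the gene in its 5′ UTR. An exon of the antisense RNA asRNA:CR44067 covers the same base. The signal was 358 at rank 2458, and the relative height was 1.67, 1.30 and 1.55 (1.51 ± 0.192, SD, n = 3). All 3 values were above the list median and far under those of wde. At the far end of egg, a summit 16 bp from the TSS of Eps-15, an endocytosis adaptor, had a signal of 379.8. That summit and the egg promoter were of like height, with a ratio of 1.04 ± 0.161 (SD, n = 3) and the Eps-15 summit higher in 1 of 3 replicates. A weaker summit of signal 128 lay beside it, and 1 of signal 203 lay 59 bp from the TSS of CG3594.

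Among the genes that act in both germ cells and gonadal somatic cells, papi had the tallest promoter summit and piwi the lowest. Papi (FBgn0031401, 2L 2220748 to 2225544, plus strand) is a mitochondrial Tudor-domain protein that takes part in trimming piRNA 3′ ends. Its strongest summit, at 2221821, had a signal of 709.7 at rank 866. The relative height was 2.75, 3.02 and 3.02 (2.93 ± 0.154, SD, n = 3), at ranks 997, 822 and 830, the smallest SD of the 7 members relative to the mean. It was not at the first TSS but in an intron, 268 bp upstream of an internal TSS, 1 of 4 annotated for the gene. A second intronic summit at 2222030 (signal 244), 59 bp from the same TSS, spread over ranks 6408, 3355 and 1410. The first TSS had a summit of its own at 2220721, 27 bp away, but at signal 126 and rank 8253 it was near the end of the list. Past the 3′ end, a summit of signal 564 stood 55 bp from the TSS of sau, the fly GOLPH3 gene, and 103 bp from that of CG15387. It was lower than the papi summit in all 3 replicates.

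Shutdown (shu, FBgn0003401, 2R 23841461 to 23843286, minus strand), a co-chaperone for loading piRNAs into PIWI proteins, had a summit at 23843324, 38 bp from its TSS, of signal 400.0 and rank 2087. The relative height was 1.36, 1.65 and 1.75 (1.59 ± 0.202, SD, n = 3). Each replicate was above its list median. A second summit, 240 bp from the TSS and in the 3′ UTR of the neighbour Snap29, was near the threshold with a signal of 119.6 at rank 8666. The dominant summit of the window was not that of shu: 23844937, between CG5554 (64 bp) and Snap29 (174 bp), had a signal of 14713 and ranks 123, 123 and 126. It was 40.0 ± 12.1 (SD, n = 3) times as high as the shu summit, and higher in all 3 replicates. Downstream of shu, a summit of signal 412 lay 118 bp from the TSS of snoRNA:Psi18S-176.

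The piwi summit was weak and its place and rank varied. Piwi (FBgn0004872, 2L 10982205 to 10987420, minus strand) is the nuclear PIWI protein after which the family is named. Its summit at 10987573, 153 bp from the TSS, had a signal of 178 and rank 5921. The relative height was 0.448, 0.872 and 0.868 (0.729 ± 0.243, SD, n = 3), at ranks 10124, 5164 and 5151. All 3 values were below the list median, and replicate 1 stood apart, its rank past the 8708 that count as support. Replicates 1 and 2 placed the summit at offsets of -85 and -71 bp, nearer to the piwi TSS, and replicate 3 at 10 bp. The diverging gene CG12253 starts 233 bp from the summit. The stronger summits of this window belonged to neighbours: 10988268 (signal 505) lay 462 bp from the CG12253 TSS, and 10989375 (signal 885, rank 650) lay 26 bp from the TSS of TTLL4A. The TTLL4A summit was 5.61 ± 2.66 (SD, n = 3) times as high as that of piwi and higher in all 3 replicates. A summit of signal 134 stood in a coding exon of CG12253.

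Of the 5 germline-only members, cuff and vas had a promoter summit, and neither summit belonged to that gene alone. Cutoff (cuff, FBgn0260932, 2R 11886067 to 11887603, plus strand) acts with Rhino at piRNA clusters. Its single summit, at 11885707, had a signal of 548 and rank 1277. The relative height was 2.11, 2.58 and 2.13 (2.27 ± 0.267, SD, n = 3), at ranks 1508, 1024 and 1422. The replicates were all above the list median. The summit lay 360 bp upstream of the cuff TSS but only 122 bp from the TSS of the diverging gene CG13185, so that by the nearest TSS it would not count for cuff at all.

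Vasa (vas, FBgn0283442, 2L 15061656 to 15074311, plus strand) is a DEAD-box helicase of nuage and pole plasm. Its promoter summit at 15061582, 74 bp upstream of the TSS, had a signal of 191 and rank 5513. The relative height was 0.885, 0.842 and 0.694 (0.807 ± 0.100, SD, n = 3), at ranks 4997, 5381 and 6552. All 3 were below the list median. The meiotic cohesion gene solo starts at the same base, so the summit cannot be given to either gene. Within vas, the strongest summit was at 15068121 (signal 611, rank 1072), 43 bp from an internal TSS of vig, a gene on the other strand in a vas intron whose product was found in the RNA-induced silencing complex. It was 3.18 ± 0.146 (SD, n = 3) times as high as the vas summit and higher in all 3 replicates. Upstream, a summit of signal 287 lay 27 bp from the TSS of the elongation factor gene TfIIS. An intronic summit at 15065958 (signal 123) was over 500 bp from any TSS.

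Aubergine, Argonaute 3 and Rhino had no thresholded summit. No entry of any of the 5 dm6 lists, background entries included, fell in or within 2 kb of aub (FBgn0000146, 2L 10997819 to 11001476, minus strand), a state shared by 12.2% of protein-coding genes and by no other member. The nearest thresholded summit was 2650 bp away at 11004126 (signal 485), 27 bp from the TSS of the ribosomal protein gene RpL9. The nearest of the 2 annotated TSSs of aub lies 13688 bp from that of piwi on the same strand, so the 2 PIWI genes of this locus differed in the thresholded list, though the piwi summit was itself weak. At rhi (FBgn0004400, 2R 17628491 to 17633516, minus strand), a germline paralog of heterochromatin protein 1 that binds H3K9-methylated clusters, only replicate 3 had entries. These were at 17632058 (signal 35.1, rank 16925) and 17633701 (signal 25.5, rank 23774), and the latter lay at -185 bp from the rhi TSS. The nearest thresholded summit, at 17639333 (signal 6134, rank 190), was 5817 bp away and 195 bp from a TSS of CG10936, the gene that has rhi in an intron.

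Argonaute 3 (AGO3, FBgn0250816, 3L 23554593 to 23689640, plus strand) is the ping-pong partner of Aubergine. Its 135048 bp held only 2 intronic entries of the pooled list, at ranks 25097 and 29815, and the matching entries of replicate 1, at ranks 15019 and 21673. Replicates 2 and 3 had none. The nearest thresholded summit, at 24028452 near CG40045, was 338812 bp from the gene. The surroundings were sparse as well: from 500 kb before AGO3 to the end of the arm, 5 of 36 protein-coding genes (13.9%) had a promoter summit. Whether the state of that region bears on the missing summit was not tested.

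**Figure D2:**
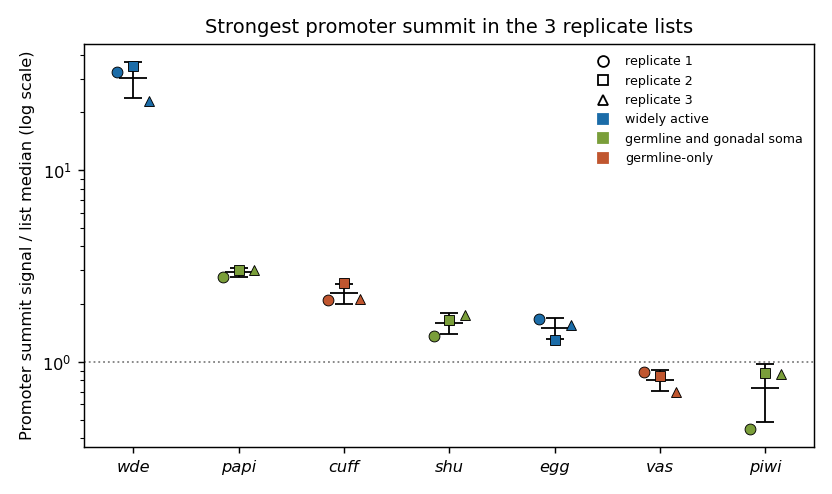
Relative height of the strongest promoter summit of each of the 7 members with one (signal over the median of the 8708 strongest entries of the same list, log axis), with 1 point per replicate list and the mean ± SD over 3 replicates in black. The dotted line is the list median; wde (30.2) stands above the others, and every replicate value of vas and piwi is below the line.

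The order of the relative heights was wde, papi, cuff, shu, egg, vas and piwi. Of the 21 pairs of these genes, 19 had the same order in all 3 replicate lists. The exceptions were neighbours in the order: shu was above egg in 2 of 3 replicates, and vas above piwi in 1 of 3. Neither pair was separated beyond the replicate spread. Set against the strongest promoter summits of all 5985 protein-coding genes that have one (median signal 314.6, quartiles 208.5 and 529.1), wde was at percentile 95.5, papi at 83.8, cuff at 76.4, shu at 63.1, egg at 57.1, vas at 20.1 and piwi at 16.7.

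**Figure D3:**
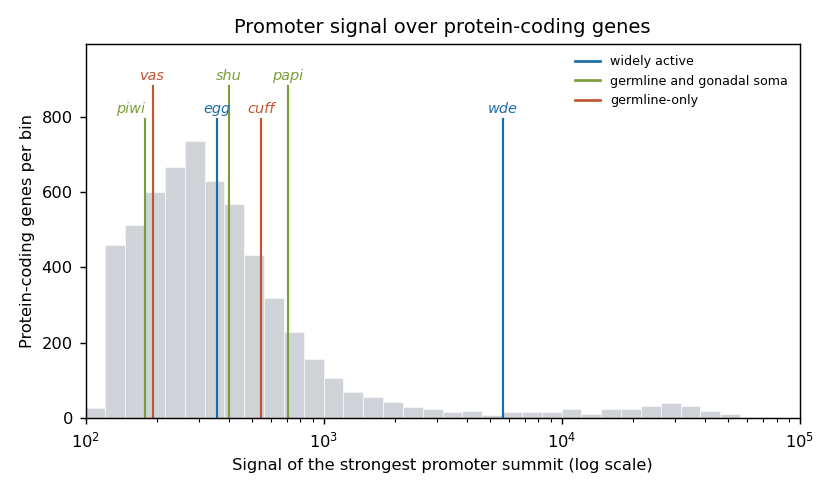
Histogram of the signal of the strongest promoter summit over the 5985 protein-coding genes with one (log axis), with the 7 members as vertical lines coloured by where they act. Piwi and vas lie below the lower quartile of 208.5, papi and cuff above the upper quartile of 529.1, and wde in the sparse tail.

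Grouped by where they are known to act, both widely active members (wde, egg), all 3 members of germline and gonadal soma (piwi, shu, papi) and 2 of 5 germline-only members (cuff, vas) had a promoter summit. The germline-only share, 40.0%, was near the 42.9% of all protein-coding genes, and 5 genes are too few to set it apart from the other groups. The share rests on the classes, which come from general knowledge: with piwi, shu and papi counted as germline-only it was 62.5%. The windows of the 3 groups held 10, 12 and 5 summits. Heights did not follow the grouping. Of the genes of germline and gonadal soma, papi was above the widely active egg in all 3 replicates and piwi below it in all 3. Of the germline-only genes, cuff was above egg in all 3 and vas below it in all 3. The cuff summit, however, is nearer to the TSS of CG13185 than to that of cuff. The share of protein-coding genes with a summit in the gene or within 2 kb rose with the length of that window. It was 37.5%, 56.9%, 66.9% and 75.0% from the shortest to the longest quartile of windows. The windows of rhi and AGO3 were in the longest quartile and that of aub in the next. Of the members with a summit, wde, piwi and vas were in the longest quartile and egg and papi in the next. Those of cuff and shu were in the quartile with a share of 56.9%. Whether window length bears on the count at any member was not tested.

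Features of the promoter summits were counted beside those of all protein-coding genes with one. The strongest promoter summit was within 500 bp of another gene's TSS for 4 of the 7 members (wde, cuff, piwi, vas), against 55.1% of protein-coding genes with a promoter summit. It lay upstream of the TSS for 6 of 7, all but egg, against 86.2%. The member's own TSS was the nearest for 6 of 7, all but cuff, against 74.2%. It was supported in all 3 replicates for 6 of 7, all but piwi, against 79.3%. None of the 4 counts stood far from its background.

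Exact strings were sought on both strands within 100 bp of the strongest promoter summit of each member. The strings GAACCAG and GAACTAG, picked with earlier results of these data known, occurred at wde alone, against 6.55% of the 5510 thresholded promoter summits. The wde window held GAACCAG 2 times, on opposite strands at 10808965 to 10808971 and 10808983 to 10808989. Only the tallest neighbouring summit of each window was compared here. In 4 windows it was taller than the member's own in all 3 replicates, and 2 of these 4 held such strings. GAACTAG stood 3 times by the CG12935 summit, where 2 of the matches overlap, and GAACCAG 1 time at the CG5554 and Snap29 summit. The TTLL4A and vig summits held neither. CGATA occurred at egg, cuff, shu and vas, so 4 of 7 against 46.0%. The full DRE, TATCGATA, which contains CGATA on both strands, occurred at none of the 7, against 11.4%. GGTCACAC, known as Ohler motif 1 of fly core promoters, and CAGCTG, the core of an E-box, occurred at none of the 7 either, against 9.6% and 16.2%. These background shares cover all promoter summits, not only the strongest of each gene. Of all 12 member promoter summits, 1 held GGTCACAC and 1 held CAGCTG, the weaker papi summits at 2220721 and 2222030.

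In a search added after the peaks were seen, the windows were 60 bp to either side of every TSS. GGTCACAC covered the first TSS of papi (2220746 to 2220753) and the TSS of piwi (10987415 to 10987422), on the strand of the gene in both. Of all protein-coding genes, 6.69% held it in such a window. The share was 12.1% among those with a promoter summit, as papi and piwi have, and 2.65% among those without. With 4 annotated TSSs, papi had more windows in which a match could fall. The thresholded summits nearest to these starts ranked 8253 and 5921 of 8708. CGATA stood near a TSS of egg, aub, AGO3 and vas, and 34.1% of protein-coding genes held it there. A match describes the letters in these windows and does not show binding.

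Other genes of the pathway, 63 in 6 lists by role, had a promoter summit in 40 cases (63.5%), against the 42.9% of all protein-coding genes. For 28 of the 40 the summit lay within 500 bp of another gene's TSS, against 55.1% of all protein-coding genes with a promoter summit. The lists were taken from general knowledge, with earlier results of these data known, and members were not counted again. Of those known as gonad-restricted, 9 of 23 (39.1%) had a promoter summit, and of those known as widely expressed 24 of 31 (77.4%). The remaining 9 were left unclassified, and 7 of them had one. The gonad-restricted class includes genes that also act in gonadal somatic cells, so it matches the germline-only members and those of germline and gonadal soma together, of which 62.5% had one.

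**Figure D4:**
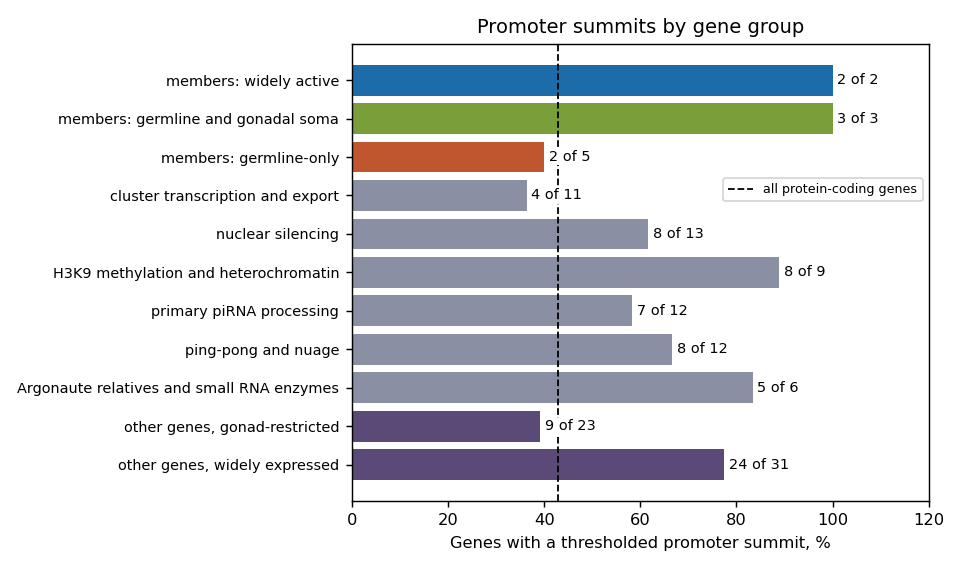
Percentage of genes with a thresholded promoter summit, by group, with the count printed at each bar: the 10 members by where they act, the 6 lists of other pathway genes, and those other genes by expression. The dashed line is the 42.9% of all protein-coding genes; the germline-only members, the list for cluster transcription and the gonad-restricted genes lie below it.

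By role, the lowest share was in transcription and export of piRNA clusters, 4 of 11 genes (36.4%). It was near the 42.9% of all protein-coding genes. Those with a summit there were the export helicase Hel25E (signal 377), the TBP relative Trf2 (223) and the THO complex subunits thoc7 (177) and thoc5 (153), while the THO subunits tho2 and Hpr1 had none in the gene or within 2 kb. The corepressor CtBP and the Rhino partner del had no promoter summit either. In nuclear silencing, 8 of 13 (61.5%) had one, beside the same 42.9%. They were led by CoRest (409), the chromatin remodeller Mi-2 (365), the histone demethylase Su(var)3-3 (332) and Panx (265), which links Piwi to silencing. The deacetylase HDAC1 and mael had none.

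The list closest to wde and egg, H3K9 methylation and heterochromatin, had moderate signals and a promoter summit at 8 of 9 genes (88.9%, beside 42.9%). The methyltransferases Su(var)3-9 (449) and G9a (339) and the heterochromatin proteins HP4 (426) and HP1b (410.2) led it, and Su(var)2-HP2 had none. Their relative heights, 1.79 ± 0.123 for Su(var)3-9 and 1.39 ± 0.0579 for G9a (SD, n = 3), were near the 1.51 of egg and well under the 30.2 of wde. All 8 summits lay within 500 bp of a further gene's TSS, beside the same 55.1%, and that of HP1c (200.1) is also that of the piRNA factor vret.

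In primary piRNA processing, 7 of 12 (58.3%) had a promoter summit, beside 42.9% of all protein-coding genes. The chaperone gene Hsp83 had the highest signal of all the pathway genes (21188, rank 94), with a relative height of 88.2 ± 16.4 (SD, n = 3). Fs(1)Yb, which organises piRNA processing in ovarian somatic cells, followed at 1864 (rank 330; 7.91 ± 1.23, SD, n = 3), the highest of the gonad-restricted genes, with its summit shared with CG2701. The mitochondrial acyltransferase mino (329) and the endonuclease zuc (212) were moderate or low, and armi and BoYb had none. In the ping-pong and nuage list, 8 of 12 (66.7%) had one, with none at me31B or qin. At the top were the DEAD-box helicase bel (1573), the RNA granule protein tral (985), the arginine methyltransferase csul (312) and the Tudor-domain protein tapas (300.4). Of the Argonaute relatives and small RNA enzymes, 5 of 6 (83.3%) had one, and Dcr-1 had none. The highest were r2d2 (617), AGO2 (313), Dcr-2 (304) and AGO1 (239). Of the 5 fly Argonaute genes, AGO1, AGO2 and piwi had a promoter summit, and aub and AGO3 had none. The piwi summit lacked support in replicate 1. These 5 genes are too few to set apart from the 42.9% of all protein-coding genes.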

How the data were processed

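ChIP-seq was done on 3 biological replicates of 1 group. The deposited dm6 lists are in narrowPeak format: 30000 entries per replicate and for the pool, peaks and background called against a control, and 8708 thresholded by IDR, which keeps peaks of reproducible rank. Heights are the signal that the authors' peak caller gave, with no scale between lists. The deposited −log10 q value is capped at 4.127 for 77.0% of thresholded peaks, so ranks follow signal. Fragments were 200 to 800 bp per the labels. The aligner, the caller, their versions and the IDR level were not given in the sources used here. The dm3 lists were not used.

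Summits were placed on FlyBase 6.54 genes (Ensembl 115) with Python 3.11.15, pandas 2.3.3 and numpy 2.4.6. Replicate support required a summit no more than 100 bp away in the top 8708 of that list. Relative heights took the strongest entry, of all 30000, no more than 100 bp away. The counting was checked on planted summits. Since there is 1 group and the genes were chosen by name, no test was run and counts are set beside all protein-coding genes. The members, lists, strings and windows were chosen with earlier results of these data known. Expression classes come from general knowledge. Of 65 names for other pathway genes, 4 matched by synonym, and 2, boot and Hop, matched no gene. Named were all members, genes sharing their promoter summits, per list up to 4 with the highest promoter signal and up to 2 without a summit in alphabetical order, and AGO1 and AGO2. Further neighbours in member windows, HP1c, vret, tho2 and Hpr1 were named after their values were seen. Alternatives changed the threshold, window, promoter width, summit distance, normalization, classes and replicates.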

Additional observations from a re-analysis of the deposited data

How the results depend on the processing

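With the gene body alone, 4 of the 10 members had a summit (19.9% of protein-coding genes). With the stronger 50% of thresholded peaks, 24 of the 63 other pathway genes had a promoter summit (29.2% of protein-coding genes). With piwi, shu and papi counted as germline-only, the share of germline-only members with a promoter summit was 62.5% in place of 40.0%. These changes follow from the narrower window, the fewer peaks and the regrouping. To leave out each replicate in turn, only thresholded peaks with support in both remaining replicate lists were kept. The thresholded list itself was still the one made from all 3 replicates. Members with a window summit then stayed at 7 of 10. The share of protein-coding genes was then 51.3% to 52.9%, against 59.1% in the main count, which asked for no replicate support. Members with a promoter summit ranged from 6 to 7 of 10, and other pathway genes from 35 to 36 of 63. The share of protein-coding genes was then 35.8% to 37.4%, against 42.9% in the main count, which likewise asked for no replicate support. Members supported in every list ranged from 6 to 7, and neighbouring pairs of one order from 4 to 6. Piwi was lost from the promoter count without replicate 2 or replicate 3. A promoter of 250 bp (38.0% of protein-coding genes), or the nearest TSS alone (33.4%), dropped cuff and left 6 members, and the stronger 50% of peaks (29.2%) dropped vas and piwi and left 5. All 30000 pooled entries added AGO3 to the window count, making 8, near the 78.1% of protein-coding genes at that setting. Over the median of all 30000 entries, heights were 95.3 for wde, 9.31 for papi, 7.19 for cuff, 5.06 for shu, 4.79 for egg, 2.56 for vas and 2.32 for piwi, in the same order. No paired analysis was possible because there is 1 group. Without read counts, a missing summit means only that none passed the authors' threshold.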
